A study of Mus musculus with 46 samples.

Results

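Replication-dependent histone genes are the clustered genes for the core histones H2A, H2B, H3 and H4. Members were taken by symbol, as every gene named H2ac, H2bc, H3c or H4c followed by a number, with no measured value used. This gave 58 of the 21812 genes in each count table: 17 for H2A, 17 for H2B, 12 for H3 and 12 for H4. The RefSeq gene table placed 47 of them on mouse chromosome 13 and 10 on chromosome 3.

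Core histones form the spool around which DNA is wound, and these genes supply them while a cell copies its DNA. Their transcription is driven in S phase by NPAT, a coactivator that gathers at the histone clusters. Their messages normally end in a short stem-loop in place of a poly(A) tail. SLBP, the stem-loop binding protein, holds that structure, helps the U7 particle cut the message, and stays with it through translation. Histone messages are removed quickly when DNA synthesis stops, while replacement histones such as H3f3a come from polyadenylated messages made throughout the cell cycle. Some clustered genes can also give polyadenylated messages, which is known from differentiating cells.

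RNA was sequenced in 46 libraries of mouse EPSCs, pluripotent stem cells held in a medium that broadens their potential, and of cells made from them. The 19 groups stood in 7 count tables, and the design asked how transcriptomes and RNA stability differ between the states. The first table held untreated EPSC (2 libraries). The second held cells from cultures in medium that induces primitive endoderm (PrE), sorted as CD140+ (PrE-E, 2) and CD140- (EPI-E, 2). The third held VE and EPI parts (6 each) of embryoids grown for 5 days from EPSC and GBL-1 and taken apart with pronase E. The fourth held EPSC (EPS) and PrE-induced EPSC (PrEdiff) after 0, 1, 2 or 3 h of actinomycin D, which blocks transcription (2 each). The last 3 tables held only PrE-induced cells (2 libraries per group). They compared Virma cKO with its WT, Mettl3 cKO with its WT, and siIgf2bp3 with siNC. Virma and Mettl3 belong to the complex that writes N6-methyladenosine into RNA, and Igf2bp3 is an RNA-binding protein described as a reader of it. The labels did not state how the cKO cells were made (which Cre or promoter), whether a genotype rests on 1 clone, or whether replicates were separate cultures. The p-values below therefore measure the spread between these libraries, which may be technical.

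The stem-loop is shown here because it sets these messages apart from almost all others, and a library that selects poly(A) tails would miss them. In GENCODE M21 transcripts, 56 members were matched and 38 had a stem-loop match. The forms below are 16 bases long and stand 5′ to 3′ in DNA letters, with both arms of the stem in capitals. The first form was in 20 members of H2A, H2B and H3, and the next was in 6 members, all H4. The form with a loop ending in a was in 5 members of H2B and H3, and the last was in H4c9 and H4c14.
H2A, H2B and H3 form: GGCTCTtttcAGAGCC
H4 form: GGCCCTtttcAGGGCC
H2B and H3 form: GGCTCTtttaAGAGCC
H4c9 and H4c14 form: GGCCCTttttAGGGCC
The arms were the same letters across the H2A, H2B and H3 forms shown, and the H4 forms had their own. Of the 20 members without a match, 18 had a transcript model, and those of H2bc18 (381 bases) and H2ac13 (393 bases) were among the short single-exon ones. A model that stops at the coding end holds no stem-loop letters, so a missing match says only that these letters are not in the model.

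Promoters are shown for 4 members that the results below turn on: H2bc18 and H2ac13, the leading members of the sorted cells, H2ac1, a germ cell H2A gene, and H4c4, the H4 member with the highest level over the tables. Each is the 250 bases before the start in the RefSeq promoter table of GRCm38.p6, and the deposited counts were made on mm39, so no count was read by these coordinates. Capitals mark CCAAT (a box bound by NF-Y), TATAAA (the TATA box) and ATTTGCAT (the octamer, which Pou2f1 reads), on either strand.
H2bc18, chr3:96269450-96269699, plus strand: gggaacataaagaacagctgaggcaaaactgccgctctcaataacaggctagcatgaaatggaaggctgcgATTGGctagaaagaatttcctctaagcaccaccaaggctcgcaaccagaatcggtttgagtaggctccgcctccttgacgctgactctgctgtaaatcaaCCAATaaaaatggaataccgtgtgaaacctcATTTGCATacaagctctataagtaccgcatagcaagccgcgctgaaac
H2ac13, chr13:21716162-21716411, plus strand: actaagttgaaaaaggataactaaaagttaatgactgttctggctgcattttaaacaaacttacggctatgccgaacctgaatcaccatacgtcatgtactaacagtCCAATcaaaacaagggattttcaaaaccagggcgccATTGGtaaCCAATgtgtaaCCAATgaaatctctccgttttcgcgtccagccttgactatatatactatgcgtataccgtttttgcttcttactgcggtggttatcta
H2ac1, chr13:23934187-23934436, plus strand: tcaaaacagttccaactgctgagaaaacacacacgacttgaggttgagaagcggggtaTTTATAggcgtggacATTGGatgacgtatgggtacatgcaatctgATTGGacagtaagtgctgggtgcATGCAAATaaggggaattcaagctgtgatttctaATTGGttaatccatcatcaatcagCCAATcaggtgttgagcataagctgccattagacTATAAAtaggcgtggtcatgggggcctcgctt
H4c4, chr13:23581318-23581567, plus strand: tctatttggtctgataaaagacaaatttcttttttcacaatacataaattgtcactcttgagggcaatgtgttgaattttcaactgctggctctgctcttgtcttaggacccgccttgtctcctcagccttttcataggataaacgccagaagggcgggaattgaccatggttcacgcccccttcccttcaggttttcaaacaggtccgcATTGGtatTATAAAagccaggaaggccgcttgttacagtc
H2bc18 held CCAAT letters and the octamer, H2ac13 held CCAAT letters on both strands, and H2ac1 held all 3 motifs. H4c4 held TATAAA and a reverse CCAAT. Each motif was searched alone on both strands, from 250 bases before to 50 after the start, and overlaps between motifs were not removed. CCAAT was in 44 of 52 member promoters (84.6%), against 37.9% of 27025 RefSeq promoters. It was in 17 of 17 for H2A, 14 of 14 for H2B and 10 of 10 for H3, but in 3 of 11 for H4. TATAAA was in 30 of 52 (57.7%), against 14.2% of all promoters. ATTTGCAT was in 12 of 52 (23.1%), against 1.75% of all, and these 12 were 6 H2A and 6 H2B members. In the layout of the clusters, 9 pairs of an H2A and an H2B gene lay head to head, with starts 163 to 280 bases apart. H2ac13 with H2bc13 (228 bases apart) and H2ac1 with H2bc1 (280 bases apart) were such pairs, so each pair shares much of its promoter window. A motif in a shared window is counted for both genes, as the octamer was for H2ac1 and H2bc1.

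Copies within a family have near-identical coding sequences, and how the authors counted reads that fit several copies is not given in the sources used here. The value of a single member is therefore uncertain where reads could be split between copies, and family sums are given beside single genes. Labels were checked with marker genes and with the targeted genes. The PrE markers (Gata6, Sox17 and 5 others) summed to 4844 to 4858 CPM in PrE-E and to 13.97 to 16.2 CPM in EPI-E, where CPM is a gene's counts relative to the library total after edgeR's TMM scaling. The visceral endoderm markers (Afp, Ttr and 3 others) summed to 4869 to 5007 CPM in embryoid VE and to 70.6 to 121 CPM in embryoid EPI. Virma stood at 67.6 and 54.5 CPM in the cKO libraries against 107 and 110 CPM in WT (log2 -0.82, adjusted p = 1.1e-06). Mettl3 did not separate its groups, with 34.9 and 37.1 CPM under the cKO label and 37.4 and 35.2 CPM in WT. Igf2bp3 was not lower under the siIgf2bp3 label either, at 116 and 111 CPM against 98.2 and 113 CPM under siNC. For a cKO label, a count over a region outside a deleted exon checks nothing. For the siIgf2bp3 label, the counts showed no lower message. Protein was not measured, so these groups are called by their labels below. Total counts ran from 6854433 to 22280769 per library.

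The 58 members took very different shares of the counts in different tables. They made up 0.643% of all counts in the median sorted library, 0.593% in EPSC, 0.563% in the Mettl3 table, 0.413% in the Igf2bp3 table and 0.230% in the Virma table. The median was 0.0356% in the embryoid table and 0.00470% in the actinomycin D table, where the 58 members together had only 528 to 1184 counts per library. The ranges of the embryoid table (0.0171% to 0.0589%) and the actinomycin D table (0.00341% to 0.00633%) did not overlap each other or those of the other 5, whose lowest library was at 0.192%. EPSC without treatment appeared in both the EPSC table (0.605% and 0.582%) and, as EPS at 0 h, in the actinomycin D table (0.00351% and 0.00341%). The Wilson 95% intervals were 0.600 to 0.610% and 0.576 to 0.588% for the former libraries, and 0.00325 to 0.00378% and 0.00316 to 0.00368% for the latter, covering counting error only. The labels name 2 total RNA kits without saying which made which library, so kit, run and table cannot be told apart, and shares between tables are given as a description with no test.

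**Figure D1:**
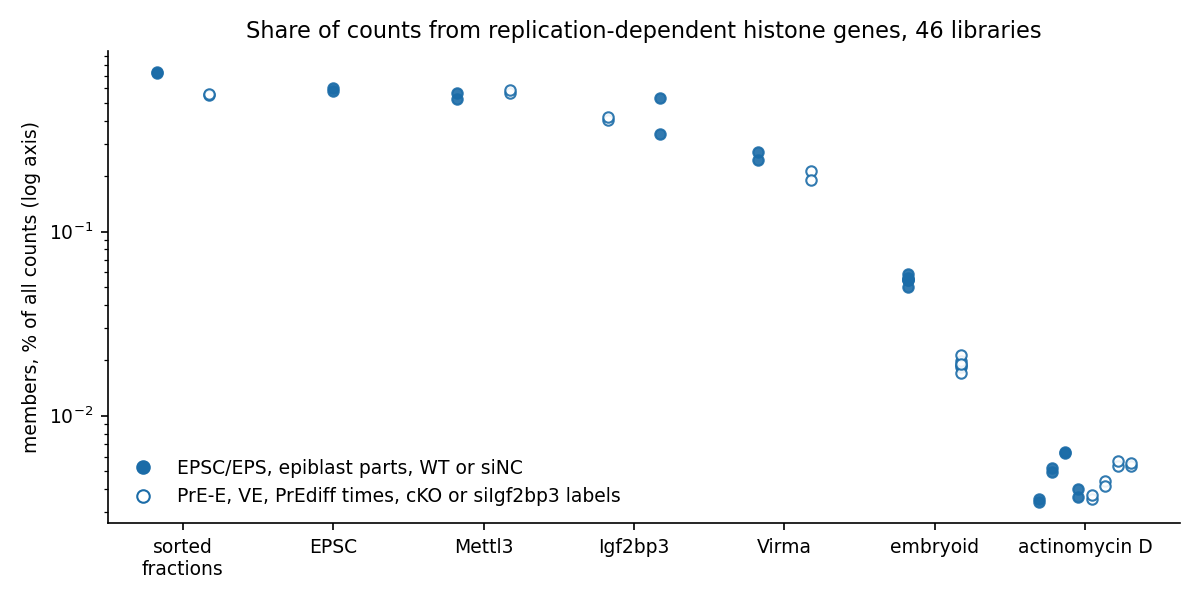
Share of each library's counts taken by the 58 replication-dependent histone genes, in percent on a log axis, with 1 point per library and the 7 tables side by side. Filled points are EPSC, EPS, epiblast, WT or siNC labels and open points the others; the actinomycin D libraries lie between 0.00341% and 0.00633%, below every other library.

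The make-up of the histone counts also fell into kinds. H4 was the largest family in EPSC (42.3% of member counts), the Mettl3 table (35.5%) and the Igf2bp3 table (42.2%), with H2A at 11.5%, 13.1% and 10.5%. H2A was the largest in the sorted cells (50.2%), the Virma table (47.9%) and the embryoids (52.2%). Across the 58 members, the table means ranked alike among EPSC, Mettl3 and Igf2bp3 (Spearman 0.944 to 0.977) and between sorted and Virma (0.964), while all other pairs of tables gave 0.307 to 0.597. These correlations are over members that share libraries and sequence, and are descriptions only. All Virma, Mettl3 and Igf2bp3 libraries came from PrE-induced cells, yet the Mettl3 and Igf2bp3 tables ranked with EPSC and the Virma table with the sorted cells.

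Single genes show the same split, given here as table means of CPM from library totals, without TMM scaling. H2ac13 stood at 1164 CPM in the sorted cells and 384 CPM in the Virma table, against 49.0, 47.5 and 44.2 CPM in EPSC, Mettl3 and Igf2bp3. H4c1 went the other way, with 450 CPM in EPSC and 9.88 CPM in the sorted cells. Per kilobase of GENCODE M21 exon, H2bc18 (3695 CPM per kb) and H2ac13 (2963 CPM per kb) led the sorted cells, and the same pair led the Virma table at 914 and 978 CPM per kb. H4c12 (872 CPM per kb) and H4c1 (835 CPM per kb) led EPSC, and H2bc18 led the Mettl3 table (674 CPM per kb). These leads depend on the lengths of the models, which are 312 bases for H4c12 and 381 bases for H2bc18. Without division by length H4c4, with a model of 1138 bases, led EPSC (543 CPM) and the Mettl3 table (472 CPM). In the embryoids H2ac8 led at 205 CPM per kb, and it alone took 39.0% of the member counts.

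The share of member counts held by genes with a given annotated end differed between these kinds of table. The 38 members with a stem-loop match held 75.0%, 74.5% and 75.2% of the member counts in EPSC, Mettl3 and Igf2bp3, against 34.6% in the sorted cells and 39.2% in the Virma table. H2bc18 and H2ac13, whose short models have no match, held 21.9% and 18.1% of the member counts in the sorted cells. In the Virma table they held 15.1% and 16.7%. A missing match says only that the letters are not in the model, so this contrast does not show how the messages end. In another grouping, which overlaps the first, 11 members, among them H2ac8, H4c9 and H2bc21, carry the poly(A) signal letters AATAAA (or the variant ATTAAA) in the last 50 bases of a transcript model. They held 48.0% of the member counts in the embryoids, 25.0% in the actinomycin D table and 20.1% in EPSC, against 2.15% in the sorted cells and 3.44% in the Virma table. H2ac8 alone held 39.0% in the embryoids. In EPSC H4c1 and H4c8, which also have a stem-loop match, held 7.6% and 5.9%. The 4 members with a spliced model (H2bc4, H2bc6, H2bc22 and H2bc23) held 14.4% in the actinomycin D table and 3.42% to 6.51% in the others. H2bc4 alone held 12.2% of the member counts in the actinomycin D table. The part of these end types in the differences between tables was not tested.

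**Figure D2:**
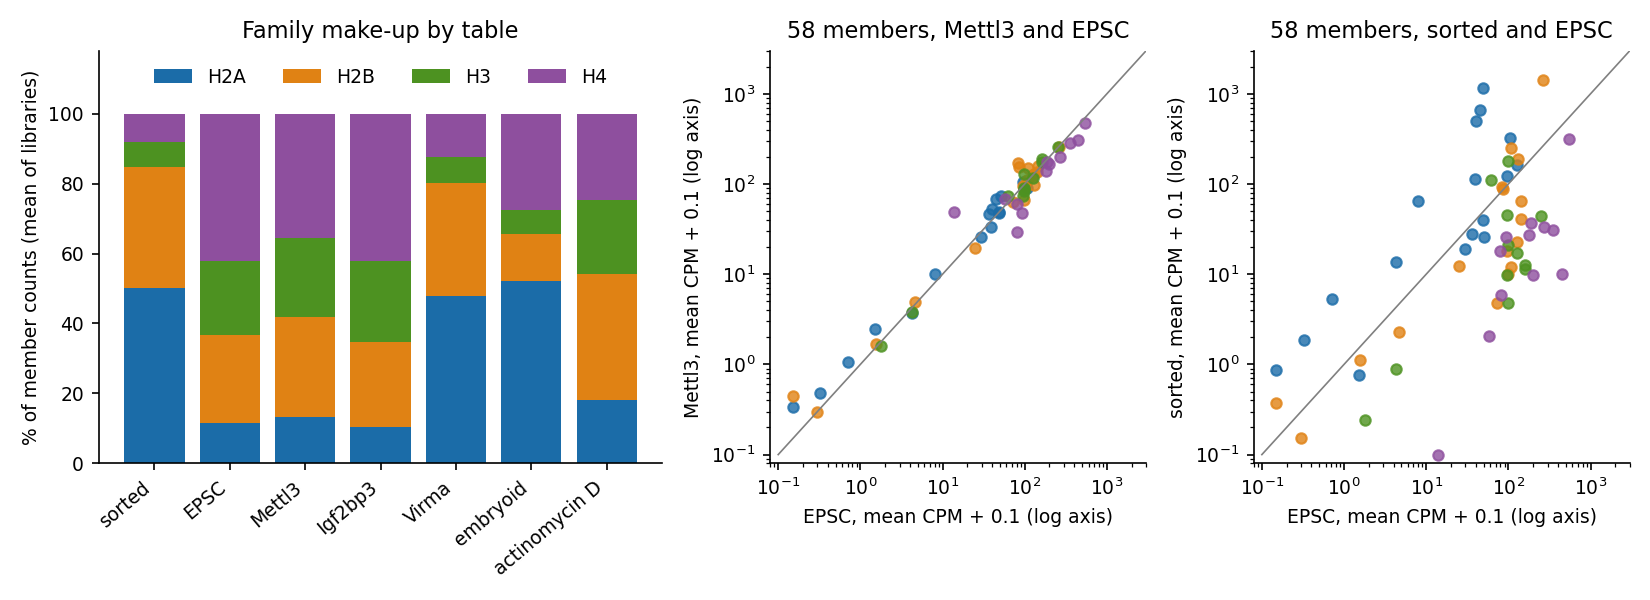
Left, percent of the member counts from H2A, H2B, H3 and H4 genes in each table. Right, mean CPM (without TMM scaling) + 0.1 of the 58 members on log axes, Mettl3 against EPSC and sorted cells against EPSC. Members follow the diagonal in the first (Spearman 0.944) and scatter widely in the second.

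Within the sorted cells, histone messages were lower in PrE-E than in EPI-E for part of the members. Of 53 members tested with edgeR, 22 fell at an adjusted p under 0.05, and the only calls were falls. Over all 12423 genes tested, 57.7% were called, 29.5% lower and 28.3% higher. The median member was at log2 -0.49 and the median of all genes at -0.03. The members summed to 5719 and 5747 CPM in PrE-E and to 7062 and 7141 CPM in EPI-E, which did not overlap (log2 -0.31). With ribosomal protein scaling, in which each library is set to its summed ribosomal protein counts, the sum differed by log2 -0.05, the H2B sum turned to 0.08, and the calls became 4 higher and 14 lower, beside 35.6% higher and 22.4% lower over all genes under that scaling. Of the 53 members, 5 passed the filter on low counts only through the EPI-E libraries, 2 of them among the 22 falls.

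By family, 6 of 16 H2A, 8 of 15 H2B, 3 of 11 H3 and 5 of 11 H4 members fell. The 2 falls that passed only through EPI-E were H2ac1 and its head-to-head partner H2bc1, which encode germ cell forms of H2A and H2B. They could hardly be called otherwise than lower, so their values are given as a description with no p. H2ac1 stood at 0.462 and 0.515 CPM in PrE-E (6 and 8 counts) and at 27.7 and 24.5 CPM in EPI-E (log2 -5.38). H2bc1 stood at 0.771 and 0 CPM in PrE-E and at 3.11 and 4.56 CPM in EPI-E (log2 -2.95). Both EPI-E libraries lay above both PrE-E libraries for each of the pair. As table means without TMM scaling, H2ac1 was at 4.20 CPM in EPSC, at 3.62 CPM in the Mettl3 table, and at 6.77 CPM in the Virma table.

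Among abundant H2A and H2B members, H2ac10 fell by 1.99 on the log2 scale, from 495 and 513 CPM in EPI-E to 128 and 127 CPM in PrE-E (SE 0.07, adjusted p = 7.4e-11). H2bc14 was at 350 and 342 CPM in EPI-E and at 144 and 161 CPM in PrE-E (log2 -1.18, adjusted p = 4.4e-08). The less abundant H2bc6 was at 25.6 and 24.6 CPM against 12.8 and 8.88 CPM (log2 -1.20, adjusted p = 0.0017). The groups of these 3 genes did not overlap. The most abundant members of the sorted cells behaved otherwise: H2bc18 stood at 1376 and 1470 CPM in PrE-E and 1340 and 1445 CPM in EPI-E (log2 0.03), and H2ac13 at 1233 and 1102 CPM against 1196 and 1125 CPM (log2 0.01). Both overlapped and neither was called. H2ac15 (log2 -0.12) was not called either.

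For H3, which carries many of the marked lysines of chromatin, H3c4 stood at 29.1 and 27.8 CPM in PrE-E and 60.8 and 63.3 CPM in EPI-E (log2 -1.12, adjusted p = 4.2e-05). H3c7 was at 4.78 and 7.47 CPM against 14.4 and 17.8 CPM (log2 -1.37, adjusted p = 0.0047), and H3c2 was not called (log2 -0.15). For H4, H4c4 was at 250 and 296 CPM against 359 and 364 CPM (log2 -0.41, adjusted p = 8.6e-04), and H4c3 fell by 0.49 on the log2 scale. The called H3 and H4 genes had no overlap between the sorted groups.

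Slbp stood at 273 CPM ± 3.17 in PrE-E and 359 CPM ± 23.5 in EPI-E (SD, n = 2 each), a fall of log2 -0.40 by edgeR (adjusted p = 3.4e-04), and Npat rose by log2 0.37 (adjusted p = 0.034). Of 18 genes for transcription, 3′ processing and turnover of histone messages, 4 rose and 7 fell, a share close to the 57.7% called over all genes, with Tut7, which adds uridines to histone messages before decay, at log2 0.89, Srrt at -1.40 and Pou2f1 at -1.26. Of 6 chaperone genes 5 fell, among them Nasp, which stores soluble histones (log2 -2.22), Hat1 (-1.37) and Chaf1b of the chromatin assembly factor (-1.13). Linker histones went both ways, with H1f5 (-1.24) and H1f1 (-1.09) lower and H1f4 (0.94) higher. Of 10 replacement histone genes 2 rose and 6 fell, with H1f0, the linker histone of resting and differentiated cells, at 2.77, Macroh2a2 at -2.92 and H3f3a at -1.26. Of 20 S phase genes 14 fell and none of the called ones rose, with a median of -1.22, including Ccne1 (-2.18), Mcm6 (-1.55) and Mcm2 (-1.49). The S phase median was thus lower than the member median, and the part of cycling in the histone values was not tested.

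**Figure D3:**
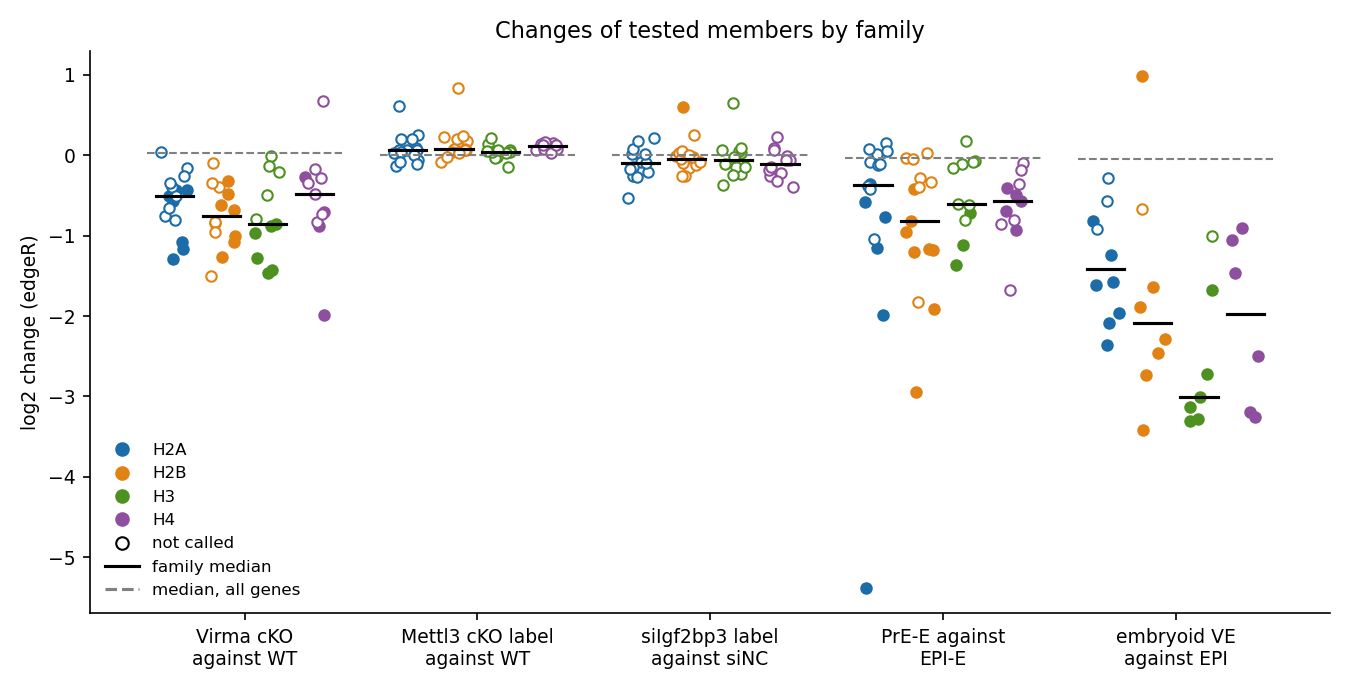
Log2 change of each tested member by family in 5 comparisons, with called members filled, black lines at family medians and a dashed line at the median of all genes. In embryoid VE against EPI H2bc4, at 0.98, is the only member above 0, most of the others there having passed the filter only through EPI, and under the Mettl3 label the members cluster near 0.

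In the embryoids, the summed histone messages were lower in VE than in EPI, and H2bc4 alone rose. Of the 58 members, 31 passed the filter on low counts. By edgeR, 25 fell and 1 rose, while over all 11254 genes tested 72.5% were called, 38.0% lower and 34.5% higher. Of the 31, 21 passed only through the EPI libraries and 18 of these fell. They could hardly have come out otherwise, so their values below carry no p. Of the 7 members that would have passed without either group, 5 fell, H2bc4 rose and H2ac20 was not called. Summed over all 58, members were at 177 to 221 CPM (median 196) in VE and 487 to 575 CPM (median 533) in EPI (log2 -1.43, and -1.12 with ribosomal protein scaling). The family sums differed by -1.54 for H2A, -0.71 for H2B, -2.72 for H3 and -1.27 for H4, and no VE library reached an EPI library in any family. In such bulk parts, fewer cells with histone messages and less message per cell cannot be told apart.

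H2ac8, the leading histone gene of the embryoids, whose model ends with a poly(A) signal, ran from 64.3 to 77.7 CPM (median 68.9) in VE and from 196 to 231 CPM (median 214) in EPI (log2 -1.61, adjusted p = 1.9e-14). H2ac23 ran from 8.38 to 12.5 CPM (median 10.3) in VE and 15.7 to 20.6 CPM (median 18.3) in EPI (log2 -0.82, adjusted p = 8.4e-04). H2ac13 ran from 0.541 to 2.94 CPM (median 1.62) in VE and 6.72 to 13.97 CPM (median 9.57) in EPI (log2 -2.36). All 6 EPI libraries were above all 6 VE libraries for these 3 genes. H2ac13 passed only through EPI. H2ac15 (log2 -1.58) needed libraries of both groups to pass, and its groups overlapped, while H2ac10 was too low to be tested.

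H2bc4 was the exception. It ran from 20.2 to 31.5 CPM (median 26.4) in VE and from 7.17 to 14.8 CPM (median 14.3) in EPI, a rise of log2 0.98 (SE 0.20, adjusted p = 1.5e-04). Every VE library was above every EPI library. H2bc4 has a spliced transcript model without a stem-loop match. Other H2B genes were lower in VE, such as H2bc12, which passed only through EPI and ran from 0 to 1.72 CPM (median 0.411) in VE and 5.13 to 11.2 CPM (median 8.18) in EPI (log2 -3.42). H2bc14, which also passed only through EPI, overlapped (log2 -1.64), and H2bc18, so abundant in the sorted cells, was at a median of 0.597 CPM in VE and 1.18 CPM in EPI and was not called (log2 -0.66).

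H3 was the family with the largest difference of the 4 sums, at 4.91 to 10.4 CPM in VE and 46.4 to 59.99 CPM in EPI. H3c3 ran from 0.613 to 2.53 CPM (median 1.37) in VE and 13.4 to 18.02 CPM (median 15.5) in EPI (log2 -3.29). H3c1 ran from 0 to 0.270 CPM in VE and 1.91 to 4.68 CPM in EPI (log2 -3.31), with at most 2 counts in any VE library. Both had no overlap, while H3c4 (log2 -1.68) overlapped. These 3 passed only through EPI, and H3c2 was not tested. In H4, H4c4 ran from 33.0 to 42.7 CPM (median 35.1) in VE and 69.1 to 90.0 CPM (median 74.5) in EPI (log2 -1.06, adjusted p = 1.3e-08). H4c9 ran from 11.6 to 19.9 CPM in VE and 16.8 to 34.7 CPM in EPI (log2 -0.91, adjusted p = 3.0e-04), with the lowest EPI library inside the VE range. H4c3 (log2 -2.50) was lower in VE without overlap and passed only through EPI, and H4c2 (log2 -3.25) overlapped and needed libraries of both groups to pass.

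**Figure D4:**
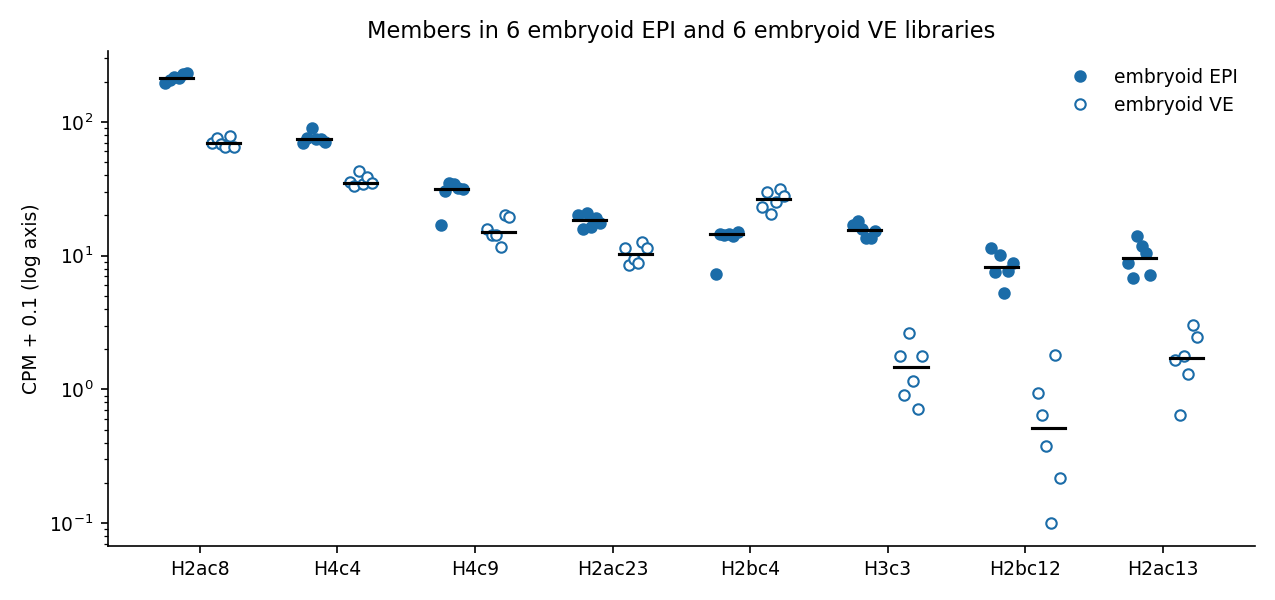
CPM + 0.1 on a log axis of 8 histone members in 6 VE and 6 EPI libraries of the embryoids, with 1 point per library and a line at each median. H2bc4 is the one panel in which VE (20.2 to 31.5 CPM) lies above EPI (7.17 to 14.8 CPM).

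Slbp stood at 311 CPM ± 20.99 in VE and 637 CPM ± 25.9 in EPI (SD, n = 6 each; log2 -1.04, adjusted p = 7.7e-14 by edgeR), while Npat was not called (log2 -0.18). Of the 18 message genes 3 rose and 7 fell, beside 72.5% called over all genes, among them Cpsf3, the nuclease that cuts histone messages (-1.32), and Eri1, the exonuclease that trims and degrades them (-1.29). All 6 chaperone genes fell, Nasp by 1.16, Chaf1b by 1.37 and Hat1 by 1.01 on the log2 scale. Of 5 linker histone genes, H1f5 (-2.02), H1f1 (-1.85) and H1f3 (-1.58) fell. Replacement histones gave 2 rises and 6 falls of 9 tested, with H1f0 at 2.20, H2ax at -1.51 and H3f3a at -1.30. Of 20 S phase genes 18 fell (median -1.32), led by Ccne1 (-3.14), Mcm6 (-2.55) and Rrm2 (-2.23). The pluripotency markers summed to 1369 to 1515 CPM in EPI and 69.2 to 80.1 CPM in VE, and their part in the histone values was not tested.

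In PrE-induced cells, the Virma cKO libraries had lower histone messages in the sums of all 4 families, although the H4 sum turned to 0.01 with ribosomal protein scaling. Of 52 members tested with edgeR 25 fell, all calls being falls, beside 33.2% called over 13113 genes (18.0% lower, 15.1% higher). The member median was log2 -0.64 and that of all genes 0.02. By family, 7 of 16 H2A, 8 of 14 H2B, 6 of 11 H3 and 4 of 11 H4 members fell. The sum of members was 1985 and 1828 CPM in cKO and 2869 and 2622 CPM in WT, without overlap (log2 -0.53). With ribosomal protein scaling the sum of members differed by log2 -0.12, and the calls became 2 higher and 9 lower, beside 37.1% higher and 5.72% lower over all genes. Of 82 ribosomal protein genes 72 fell in this comparison. Scaling to library totals called 14 lower, beside 11.4% lower over all genes, and leaving out WT replicate 1 called 16, beside 14.1%.

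H4c14, whose transcript model ends with a poly(A) signal, stood at 4.27 and 7.32 CPM in cKO and 22.1 and 25.0 CPM in WT (log2 -1.99, SE 0.29, adjusted p = 1.2e-06). H2ac22 stood at 104 and 94.5 CPM in cKO and 229 and 194 CPM in WT (log2 -1.08, adjusted p = 3.5e-11). H2ac8 was at 6.19 and 9.42 CPM against 16.9 and 21.6 CPM (log2 -1.28, adjusted p = 6.4e-04). The cKO libraries were below the WT libraries in each case, as they were for H2ac6, at 7.03 and 9.17 CPM against 23.03 and 13.8 CPM (log2 -1.17). Among the most abundant members, H2bc18 was at 290 and 264 CPM in cKO and 442 and 412 CPM in WT (log2 -0.62, adjusted p = 1.4e-08), and H2ac13 at 332 and 307 CPM against 470 and 441 CPM (log2 -0.51, adjusted p = 3.5e-07). H2ac15 was at 60.6 and 67.8 CPM against 100 and 90.8 CPM (log2 -0.57, adjusted p = 2.4e-04). H2bc14 (log2 -0.32) and H4c4 (log2 -0.27) fell by TMM scaling but turned to 0.08 and 0.13 with ribosomal protein scaling, and H4c4 overlapped. H2ac10 (-0.16), H3c2 (-0.20), H3c4 (-0.13) and H4c3 (-0.28) were not called.

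Slbp stood at 219 CPM ± 7.08 in cKO and 306 CPM ± 24.1 in WT (SD, n = 2 each; log2 -0.48, adjusted p = 5.8e-06 by edgeR), and Npat was not called (log2 0.08). Of 18 message genes 2 rose and 9 fell, including Sympk, the scaffold of the cleavage complex (-0.90), and Cstf2 (-0.53). Over all genes tested 33.2% were called, 15.1% higher and 18.0% lower. Nasp (-0.80) and Hat1 (-0.20) were the 2 of 6 chaperone genes that fell, Hat1 turning to 0.21 with ribosomal protein scaling. H1f5 (-0.78) and H1f1 (-0.48) fell among 5 linker histones. Replacement histones gave 1 rise and 6 falls of 10, with Cenpa, the centromere H3 form, at -0.88 and H2az1 at -0.65. Of 20 S phase genes 15 fell and 1 rose (median -0.45), including Rrm2 (-0.66), Mcm4 (-0.65) and Mcm3 (-0.58). The groups also differed in cell type markers: 8 feeder fibroblast markers summed to 753 to 763 CPM in WT and 2094 to 2155 CPM in cKO, and the 7 PrE markers to 1293 to 1342 CPM in WT and 145 to 164 CPM in cKO. Their part in the histone values was not tested.

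Under the Mettl3 cKO label no histone member was called in the fit without a replicate block. Of 54 members tested with edgeR, 0 passed, beside 3.95% of 13115 genes (2.51% higher, 1.44% lower), with 8 members at an unadjusted p under 0.05 and 0 by DESeq2. The median member was at log2 0.07. Of the 54 members, 44 had a positive log2 and 10 a negative one. The sum was 5615 and 5865 CPM under cKO and 5655 and 5311 CPM in WT, which overlapped. The H2A and H3 sums overlapped too. The H4 sum did not, at 2031.7 and 2092.7 CPM under cKO and 1961.5 and 1876.8 CPM in WT (log2 0.10). The H2B sum was at 1620.1 and 1694.2 CPM against 1620.1 and 1504.2 CPM (log2 0.09). The germ cell pair had the largest differences of the named members: H2bc1 stood at 5.56 and 6.76 CPM against 3.14 and 3.57 CPM (log2 0.84, adjusted p = 0.076), and H2ac1 at 4.50 and 4.31 CPM against 2.89 and 2.78 CPM (log2 0.61, adjusted p = 0.33). The abundant members lay closer to 0, at -0.06 for H2ac15, 0.09 for H2ac10, 0.04 for H2bc18, 0.08 for H2bc14, -0.02 for H3c2, 0.03 for H3c4, 0.07 for H4c4 and 0.17 for H4c3. Slbp (0.03) and Npat (-0.03) were not called, nor was any gene of the message, chaperone, linker, replacement and S phase lists. Since Mettl3 itself stood at the same level under both labels, these values describe the labels and not a measured loss of Mettl3. The PrE markers summed to 1568 to 1607 CPM in WT and 1184 to 1199 CPM under the cKO label. The feeder fibroblast markers summed to 1962 to 2083 CPM and 2877 to 2996 CPM. Their part in the histone values was not tested.

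Under the siIgf2bp3 label 1 member was called, and the 2 siNC libraries differed from each other more than the groups did. Members took 0.535% of the counts in siNC replicate 1 (Wilson 95% interval 0.530 to 0.540%) and 0.338% in replicate 2 (0.334 to 0.342%). Their sum was 5420 and 3359 CPM in siNC and 4036 and 4202 CPM in siIgf2bp3, so the siIgf2bp3 libraries lay between the siNC libraries. H4c4 showed the same, at 655 and 378 CPM in siNC and 455 and 455 CPM in siIgf2bp3. Of 52 members tested with edgeR, H2bc18 rose, from 132 and 127 CPM to 196 and 199 CPM (log2 0.61, adjusted p = 0.0058), beside 7.29% called over 12918 genes (2.79% higher, 4.5% lower). The count rested on the siNC libraries: without siNC replicate 1 there were 20 members higher, beside 8.3% of all genes, and without siNC replicate 2 there were 1 higher and 32 lower, beside 17.9% and 19.1% of all genes. The call of H2bc18 was lost when siIgf2bp3 replicate 1 or replicate 2 was left out. Its log2 ranged from 0.57 to 0.61 when any 1 library of this comparison was left out.

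The other abundant members were not called: H2ac15 (-0.54, adjusted p = 0.13), H2ac10 (0.01), H2bc14 (-0.10), H3c2 (0.07), H3c4 (-0.11), H4c4 (-0.18) and H4c3 (-0.06). Slbp (0.23) and Npat (0.25) were not called by edgeR. Of the 18 message genes Pou2f1 (0.40) and Ncbp2 of the cap-binding complex (0.45) rose and Sympk (-0.48) fell. Over all genes tested 7.29% were called, 2.79% higher and 4.5% lower. Of 20 S phase genes 4 rose, among them Pcna (0.47) and Pola1 (0.43). Since Igf2bp3 itself was not lower under this label, these values describe the labels and not a measured loss of Igf2bp3. The PrE markers summed to 1087 to 1091 CPM in siNC and 540.8 to 547.5 CPM in siIgf2bp3. The feeder fibroblast markers overlapped, at 520.6 to 669.3 CPM and 590.5 to 600.2 CPM. The part of cell make-up in the histone values was not tested.

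Before actinomycin D, histone messages of PrEdiff and EPS were close, in the table where they had the fewest counts. Of the 58 members 32 could be tested with edgeR, 2 rose and 2 fell, beside 80.5% called over 14127 genes (37.6% higher, 42.9% lower). The sum was 28.2 and 29.6 CPM in PrEdiff and 31.7 and 30.8 CPM in EPS. H3c14 stood at 0.960 and 0.783 CPM in PrEdiff and 0.379 and 0.183 CPM in EPS (log2 1.33, adjusted p = 9.9e-04). H3c3 was at 2.13 and 2.30 CPM against 3.22 and 3.25 CPM (log2 -0.52, adjusted p = 0.0089). H2bc21, an H2B gene with a poly(A) signal in its model, was at 1.33 and 1.83 CPM against 0.854 and 1.19 CPM (log2 0.58, adjusted p = 0.046), and H3c10 fell by 1.06 on the log2 scale from 12 counts in each EPS library to 3 and 5. None of the 4 overlapped, and H2bc4 was not called (log2 -0.31). Without EPS replicate 1 or without PrEdiff replicate 1 at 0 h, 2 members were called in place of 4. Replicates of this table differed by little more than sampling noise, with a chi-square per degree of freedom of 1.21 to 1.32, so their p-values may reflect counting error more than separate cultures.

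At 0 h Slbp was lower in PrEdiff (log2 -0.48) and Npat higher (log2 0.20), and of the 18 message genes 4 rose and 13 fell, Srrt by 1.46, beside 80.5% called over all genes. Nasp (-0.89), Chaf1b (-1.07), H2az1 (-1.97), Ccne1 (-1.27) and Rrm2 (-0.86) also fell. Of 6 chaperone genes 1 rose and 5 fell, of 10 replacement histone genes 2 rose and 6 fell, and of 20 S phase genes 3 rose and 16 fell, beside 37.6% higher and 42.9% lower over all genes. None of the 5 linker histone genes was called.

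After 2 h of actinomycin D, most histone members took a larger part of the counts in both states, which holds relative to the average transcript and not to ribosomal protein messages. In EPS 26 of 32 members rose and 2 fell by edgeR, beside 71.7% called over all genes (34.4% higher, 37.3% lower). Of the 26, 1 passed the filter on low counts only through the EPS 2 h libraries, so it could hardly have fallen. In PrEdiff 23 rose and 2 fell, beside 67.6% (37.7% higher, 29.9% lower). The member medians were log2 1.26 and 1.14, and those of all genes -0.02 and 0.07. Each state was compared with its own 0 h libraries, the ones also used in the comparison at 0 h. The summed CPM went from 31.7 and 30.8 to 73.4 and 73.9 in EPS and from 28.2 and 29.6 to 54.9 and 58.7 in PrEdiff. Ribosomal protein genes, which have long-lived messages, went up alongside (82 of 83 rose in each state, with medians of 1.34 and 1.11). Scaled to them, the sums differed by -0.08 and -0.11, and the calls became 1 higher and 3 lower in EPS and 1 higher and 4 lower in PrEdiff. Over all genes under that scaling, 0.998% were higher and 88.3% lower in EPS, and 0.566% higher and 87.9% lower in PrEdiff.

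The single members followed. H2bc4 stood at 4.17 and 4.12 CPM at 0 h and 10.9 and 10.9 CPM at 2 h in EPS (log2 1.37, adjusted p = 8.1e-23), and at 3.47 and 3.19 CPM and then 5.61 and 5.03 CPM in PrEdiff (log2 0.66, adjusted p = 1.6e-04). H3c3 went from 3.22 and 3.25 CPM to 9.43 and 7.93 CPM in EPS (log2 1.39) and from 2.13 and 2.30 CPM to 5.35 and 4.97 CPM in PrEdiff (log2 1.18). No 2 h library overlapped its 0 h libraries for either gene. H2ac8 rose by log2 1.54 and 1.25, H4c4 by 1.67 and 1.38, H4c9 by 0.77 and 0.97, and H2ac15 by 1.43 and 1.81, in EPS and PrEdiff respectively. H4c9 turned to -0.52 and -0.10, and H2bc4 in PrEdiff to -0.41, with ribosomal protein scaling. H2bc14 rose in EPS (1.31) and was not called in PrEdiff (0.51), while H4c3 rose in PrEdiff (1.33) and was not called in EPS (0.68), differences between states that were not called either.

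H2bc21 and H2ac10 fell in both states. H2bc21 went from 0.854 and 1.19 CPM to 0.562 and 0.312 CPM in EPS (log2 -1.05, adjusted p = 0.0077) and from 1.33 and 1.83 CPM to 0.587 and 0.926 CPM in PrEdiff (log2 -0.95, adjusted p = 0.0047). H2ac10 fell by 1.07 in EPS and 1.98 in PrEdiff on the log2 scale, from 10 to 12 counts per library to 2 to 4 and from 9 to 17 counts to 1 to 2. It passed the filter on low counts only through 0 h libraries, so it is given with no p. The 0 h libraries were above the 2 h libraries for both genes, and DESeq2 called no fall of a member in either state. In EPS the 2 falls became 0 without 0 h replicate 2 or without 2 h replicate 2, and 1 without 0 h replicate 1. In PrEdiff they became 1 without 0 h replicate 2 or without 2 h replicate 1.

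**Figure D5:**
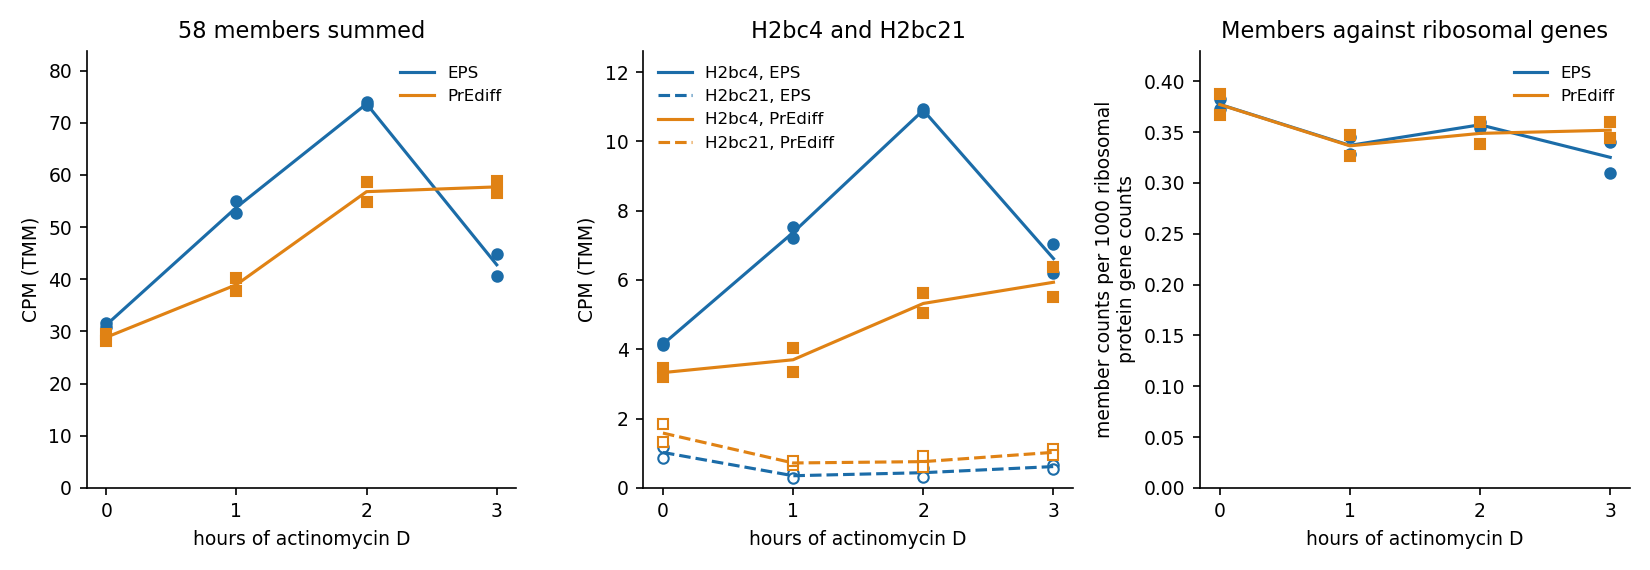
Actinomycin D time course from 0 to 3 h in EPS and PrEdiff, with 1 point per library: summed CPM of the 58 members, CPM of H2bc4 and H2bc21, and members per 1000 counts of ribosomal protein genes. The summed CPM peaks at 2 h in EPS, at a mean of 73.6, while the ratio to ribosomal protein counts stays between 0.310 and 0.387.

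Over the whole course the mean summed CPM in EPS was 31.2, 53.8, 73.6 and 42.8 at 0, 1, 2 and 3 h, and in PrEdiff 28.9, 38.9, 56.8 and 57.7. The EPS value at 3 h was thus lower than at 2 h, which PrEdiff did not show. Ribosomal protein genes made the same turn, taking 9.18% and 9.16% of the EPS counts at 0 h, 17.7% and 17.6% at 2 h and 11.6% and 11.7% at 3 h. Per 1000 ribosomal protein counts, members stood at 0.377, 0.337, 0.357 and 0.325 in EPS and at 0.377, 0.336, 0.349 and 0.352 in PrEdiff. At 3 h against 0 h, 10 members were higher and 1 lower in EPS, beside 43.1% higher and 27.9% lower over all genes, and 21 higher and 1 lower in PrEdiff, beside 37.5% and 30.1%.

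The 2 h changes themselves differed between the states for 1 member. H2bc4 rose less in PrEdiff than in EPS, by -0.71 on the log2 scale (SE 0.22, adjusted p = 0.0048 by edgeR), beside 31.7% called over all genes (22.2% higher, 9.45% lower) and a member median of -0.20. At 3 h against 0 h the difference for H2bc4 was 0.15 and was not called. Without PrEdiff 2 h replicate 1 or 2, 2 members were called. Among the message genes, Npat (1.12), Casp8ap2, a partner of NPAT at the histone clusters (1.17), and Slbp (0.32) all fell less in PrEdiff.

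Against their own 0 h libraries, Npat fell by 2.56 in EPS and 1.44 in PrEdiff on the log2 scale, Casp8ap2 by 2.58 and 1.42, Pou2f1 by 1.37 and 0.92, and Slbp by 0.61 and 0.29. Of the 18 message genes 6 rose and 11 fell in EPS, and 7 rose and 11 fell in PrEdiff. Over all genes 34.4% were higher and 37.3% lower in EPS, and 37.7% higher and 29.9% lower in PrEdiff. All 10 replacement histone genes rose in both, H3f3a by 0.77 and 0.75, which turned to -0.55 and -0.34 with ribosomal protein scaling. Of 5 linker histone genes 3 rose in EPS and 4 in PrEdiff, with H1f3 at 1.37 and 1.17, H1f1 at 1.18 and 1.41 and H1f4 at 0.91 and 1.45, where H1f1 and H1f4 in EPS turned to -0.08 and -0.18 under that scaling. Of 20 S phase genes 12 rose and 7 fell in EPS, and 13 rose and 6 fell in PrEdiff. No scaling here measures the amount of RNA per cell, so a rise in CPM after actinomycin D is a larger part of what remained.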

How the data were processed

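RNA was measured by total RNA sequencing in 46 libraries. The authors deposited 7 tables of raw counts per gene, whole and unscaled, for 21812 genes. The tools named per the submitters' processing notes are STAR 2.7.11b, Subread, Trim Galore, FastQC 0.12.1 and DESeq2, with the build mm39; the annotation, strand setting and treatment of reads that fit several places are not given in the sources used here. That treatment can raise or lower any histone value. From the EPSC table, 19 repeated symbols (at most 0.107% of counts, none a histone gene) were left out, and 0 columns belonged to no sample. Virma columns carry the word "input", which the labels do not explain.

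Groups came from sample titles. Genes were tested within a table with edgeR 4.0.16 (R 4.3.3, limma 3.58.1) on the deposited counts: a robust quasi-likelihood fit with TMM factors, genes kept at a count minimum of 10 (15 summed over libraries), and Benjamini-Hochberg adjustment over all genes at 0.05. Each comparison used its own table, and all 16 actinomycin D libraries entered 1 fit. Log2 changes have a prior count of 2. Fits were tested on simulated counts. Shares have Wilson 95% intervals, which cover counting error only, as does everything limited by depth (6854433 to 22280769 counts per library). Sums over members, stem-loops and motifs were described without a test; Python 3.11.15 was used for these.

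Named genes were the 2 members per family with the highest median CPM over tables, up to 4 called rises and 4 called falls with a mean of at least 10 CPM, Slbp, Npat, up to 3 called genes per list, and the targeted gene; 1 gene under this rule is not reported here. H2bc1, H2bc21, H3c3, H3c10, H3c14 and other low members outside that rule were named after their values were seen, as were H2ac1 outside the sorted cells and H2bc4 outside the embryoids. The members and lists were chosen with earlier results of these data known. Alternatives were RLE factors, library totals, ribosomal protein scaling, DESeq2 1.42.0, 2 other filters, a replicate block, other times and slopes, and leaving out each library. A crossed block and fits without both EPS 3 h libraries were chosen after seeing the data.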

Additional observations from a re-analysis of the deposited data

Results flagged for a closer look

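In 76 groups of 6 libraries tested for a single library standing far from the rest, of which chance flags about 1 in 20, 5 values stood apart. In embryoid EPI, replicate 1 was the lowest library for H2bc4, at 7.17 CPM, and for H4c9, at 16.8 CPM. Replicate 3 of embryoid EPI was the highest for H4c4, at 90.0 CPM. In embryoid VE, replicate 3 was the highest for H3f3a, at 312 CPM, and replicate 2 the highest for H4c2, at 1.22 CPM. H2bc4 in EPI replicate 1 was farther from VE than the other EPI libraries, and H4c9 in the same library was the value that made the groups overlap. Between states, the 2 h change of H2bc4 was smaller in PrEdiff than in EPS by -0.71 on the log2 scale, by a test of the difference itself.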

How the results depend on the processing

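Of 220 alternatives of member counts, 198 stayed within 1.5 times the main count, and of 3250 alternatives for single genes 3028 kept direction and call, 133 lost the call, 19 gained one, 57 changed sign while not called and 13 reversed. Counts of called members moved as follows. For Virma the count was 14 with library totals, 11 with ribosomal protein scaling, and 16 to 24 leaving out 1 library. For siIgf2bp3 it was 0 to 33 leaving out 1 library, and for PrEdiff against EPS at 0 h it was 2 to 5. For EPS at 2 h it was 4 with ribosomal protein scaling, 11 at 3 h and 2 for the slope from 0 to 3 h. For PrEdiff at 2 h it was 5 with ribosomal protein scaling, 7 at 1 h and 15 for the slope. For the difference between states it was 3 at 1 h, 6 at 3 h, 0 for the slope and 1 to 2 leaving out 1 library. At 0 h the 2 rises and 2 falls became 3 and 1 with library totals. Replicate numbers did not pair the samples (correlation of same-numbered deviations between -0.13 and 0.0337), and the replicate block gave 2 members for siIgf2bp3, 24 for Virma, 22 for PrE-E and 26 for the embryoids. It moved no other count of members beyond 1.5 times. In the Mettl3 table, where the correlation was -0.13, a crossed replicate block gave 8 members, all 8 higher, beside 10.8% called over all genes. Reversed with ribosomal protein scaling were H2bc14 (0.077), H4c4 (0.13) and Hat1 (0.21) for Virma, H1f1 (-0.075), H1f4 (-0.18), H3f3a (-0.55) and H4c9 (-0.52) for EPS at 2 h, and H2bc4 (-0.41), H3f3a (-0.34) and H4c9 (-0.10) for PrEdiff at 2 h. At 3 h H2ac15 reversed in EPS (-0.18), and the H2bc4 difference reversed at 3 h (0.15) and for the slope (0.034). The cause of these moves was not tested, apart from the scaling itself. Few histone counts limit the actinomycin D and embryoid tables, with 528 to 1184 and 1330 to 8735 member counts per library. In these, 5 to 10 and 1 to 22 members had no counts in a library.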
